A study of Mus musculus with 53 samples.

Results

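Bladder and esophagus were compared at embryonic day 18.5 of the mouse, shortly before birth, on the 3 arrays of each organ hybridised to a 3′ expression array. All 18193 genes that the array names were compared, each through its brightest probe set, the short stretch of a transcript that the array reads. The 6 arrays are part of a series of 53 arrays in 18 groups from lung, skin, stomach, cornea and other surface organs, of which 26 arrays in 9 groups share this array type. The bladders came from mice labelled Get1 +/-, which carry 1 altered allele of Get1, the grainyhead-like factor also called Grhl3, and no strain is given for them. The esophagi came from wildtype CB6 mice. No treatment is named for either organ. The series text names the bladder arrays among data taken from an earlier study of the laboratory and does not name the esophagus among them. Organ, genotype and study of origin therefore cannot be told apart in any difference given here. The labels do not say whether the 3 arrays of an organ came from separate animals. The p-values therefore reflect array-to-array spread that may be purely technical, and the number of arrays limits the precision. In the main fit, that spread was pooled for each gene over all 26 arrays in 9 groups. Spread within other organs therefore enters the SEs, intervals and p-values.

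The bladder is lined by urothelium, a stretchable epithelium whose surface cells carry plaques of uroplakin proteins and which rests on thick smooth muscle. The esophagus is lined by a stratified squamous epithelium that makes the keratins Krt4 and Krt13 over a basal layer marked by Krt5, Krt15 and p63, and in the mouse its outer muscle becomes largely striated. The organs also arise at opposite ends of the body: the esophagus from the anterior foregut, where Sox2 and Pax9 act, and the bladder from the cloaca, where posterior Hox genes act. Whole organs were homogenised, so a lower level can come from fewer cells of a type or from less RNA per cell, and these cannot be told apart.

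Levels are given as log2(intensity + 16) after quantile normalization, on which a probe set listed at 0 stands at about 4. Differences are bladder minus esophagus on the same scale, which understates the change of dim genes. Across all genes, the arrays of an organ differed from each other with an SD of 0.44 to 0.56, and arrays of different organs with an SD of 0.75 to 0.93. Before normalization the median level was 5.75 to 5.79 on the bladder arrays and 5.96 to 6.03 on the esophagus arrays. The 3′ probe set of Gapdh, a housekeeping gene used here as a sign of RNA quality, exceeded its 5′ probe set by 1.13, 1.19 and 3.70 in bladder and by 1.36, 1.60 and 2.37 in esophagus. Bladder replicate 3 had the widest gap. Xist, which is made in female cells, lay between 10.39 and 11.57 on all 6 arrays, and the Y-linked genes Kdm5d, Eif2s3y and Uty lay between 4.00 and 5.78, so all 6 arrays were alike in these genes.

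Of the 18193 genes, 2042 differed between the organs at an adjusted p under 0.05 in limma's moderated test with a change of at least 2-fold, which is 11.2% of the genes compared. Bladder was higher for 1159 genes (6.37%) and lower for 883 (4.85%). The changes reached 8-fold for 40 of the higher and 63 of the lower genes. Of the 2042 called genes, 1964 had arrays that did not overlap between the organs, against 7090 of all genes, 38.97%. The split between the directions depended on the scaling: bladder made up 56.76% of the calls here and 44.1% when the deposited values were used without quantile normalization, with 864 genes higher and 1095 lower. The median difference of all genes was 0.12, and 0.26 when array medians were aligned. Where a called gene had another probe set, that probe set moved the same way for 494 of 565 higher genes and 273 of 385 lower genes.

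The 3 largest increases in bladder were posterior Hox genes, Hoxd13, Hoxa9 and Hoxa10. Hoxd13, which patterns the hindmost body, stood at 10.34, 10.09 and 9.89 on the bladder arrays and at 4.20, 4.49 and 4.85 on the esophagus arrays, a difference of 5.59 ± 0.19 (SE, n = 3 and 3; adjusted p = 2.46e-14). The urothelial plaque gene Upk1a was 25.9-fold higher. The largest decreases were Gm12446, an RNA gene without a known role, at -6.90, and Cyp2f2, a cytochrome of airway secretory cells, which was 102-fold lower in bladder. The squamous keratin Krt13 was 74.5-fold lower, Calml3, a calmodulin-like protein of stratified epithelia, 91.1-fold lower, and the roadblock-type dynein light chain gene Dynlrb2 32.3-fold lower.

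**Figure D1:**
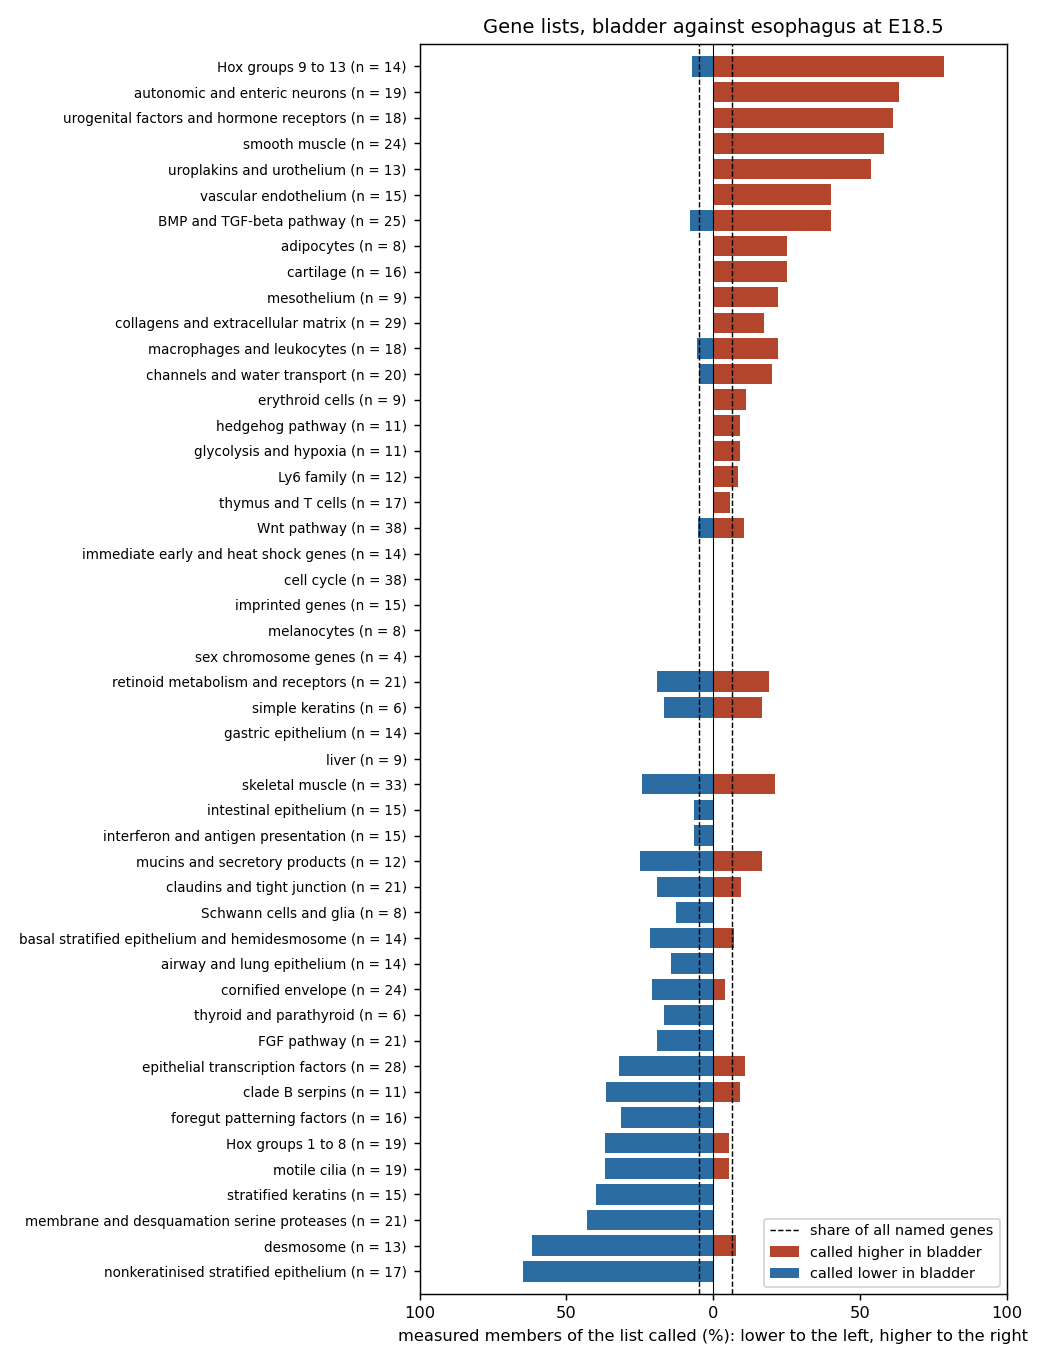
For each of the 48 gene lists, the share of measured members that was called higher in bladder (right, red) or lower in bladder (left, blue), in percent; n is the number of members measured, and the dashed lines mark the shares among all named genes, 6.37% and 4.85%. Posterior Hox genes, neurons, urogenital factors, smooth muscle and urothelium extend farthest to the right, and nonkeratinised stratified epithelium and desmosome farthest to the left.

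The sequence just before the transcription start is shown for a gene of each of 4 groups described here: a posterior Hox gene, a uroplakin, a squamous keratin and a cilium gene. The sequences are the 250 bases before the first listed RefSeq start in GRCm38.p6, on the strand of the gene, 5′ to 3′. Capitals mark a grainyhead-type site (AACCNGTT), a GATA site (AGATAA), the core of an RFX site (GTTGCC), an ETS site (GGAAGT) or a TATA box (TATAAA), on either strand.
Hoxd13 (chr2:74667975-74668224, plus strand): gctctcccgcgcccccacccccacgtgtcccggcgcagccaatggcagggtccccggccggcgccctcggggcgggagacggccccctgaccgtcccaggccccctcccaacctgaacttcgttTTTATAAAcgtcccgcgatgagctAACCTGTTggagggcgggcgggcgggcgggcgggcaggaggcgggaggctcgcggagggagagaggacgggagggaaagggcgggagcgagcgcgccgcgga
Upk3a (chr15:85016891-85017140, plus strand): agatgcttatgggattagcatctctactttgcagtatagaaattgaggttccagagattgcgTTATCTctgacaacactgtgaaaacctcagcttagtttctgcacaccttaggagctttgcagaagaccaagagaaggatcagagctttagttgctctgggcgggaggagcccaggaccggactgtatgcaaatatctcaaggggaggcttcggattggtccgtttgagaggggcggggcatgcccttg
Krt13 (chr11:100121567-100121816, minus strand): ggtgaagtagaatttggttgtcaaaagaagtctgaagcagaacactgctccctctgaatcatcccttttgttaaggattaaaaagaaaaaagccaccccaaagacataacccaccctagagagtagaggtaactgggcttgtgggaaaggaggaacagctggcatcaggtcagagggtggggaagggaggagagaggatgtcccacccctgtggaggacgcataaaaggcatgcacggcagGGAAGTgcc
Dynlrb2 (chr8:116504765-116505014, plus strand): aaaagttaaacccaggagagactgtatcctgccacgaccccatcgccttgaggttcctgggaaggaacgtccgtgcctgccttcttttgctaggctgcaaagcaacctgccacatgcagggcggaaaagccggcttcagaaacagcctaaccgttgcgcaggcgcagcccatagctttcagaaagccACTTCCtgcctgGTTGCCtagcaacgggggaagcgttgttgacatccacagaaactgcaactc
In Hoxd13 a grainyhead-type match began 102 bases before the start, close to overlapping TATA matches that began 126 bases before it. Upk3a held a GATA match 188 bases before its start, Krt13 an ETS match 9 bases before it, and Dynlrb2 an RFX core 51 bases and an ETS match 63 bases before it. Promoters were found for 14452 of the 18193 genes. The grainyhead-type letters occurred in 1.68% of them, in 1.15% of those called higher in bladder and in 1.77% of those called lower. The RFX core occurred in 10.6% of all promoters and in 6 of 16 motile cilia promoters, and the ETS letters in 21.5% of all and in 5 of 12 promoters of the nonkeratinised stratified list. GATA letters occurred in 7.47% of all promoters, 7.73% of those called higher and 9.87% of those called lower, in 2 of 9 urothelial promoters and in 2 of 7 promoters of stratified keratins. In the same order, over all, higher and lower genes, the ETS letters occurred in 21.5%, 13.5% and 19.7%, the RFX core in 10.6%, 10.8% and 11.2%, and the TATA box in 9.02%, 9.23% and 13.5%. Of the 8 motifs searched, 3 were not marked: a SOX site (ACAAAG) occurred in 1993 of 14452, 91 of 867 and 122 of 679 promoters, a forkhead site (TGTTTAC) in 2.51%, 2.31% and 3.68%, and AACCGGTT, a form of the grainyhead-type site, in 0.18%, 0.115% and 0.295%. A match is a description of letters and shows no binding.

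Most of the urothelial genes were higher in bladder, but the uroplakin Upk1b was as high in esophagus. Of 13 measured genes of the urothelial list, 7 were called higher and none lower, with a median difference of 2.03 against 0.12 over all genes. Upk1a, a tetraspanin of the apical plaque, stood at 9.03, 9.35 and 8.81 in bladder and at 4.32, 4.11 and 4.67 in esophagus, a difference of 4.70 ± 0.23 (adjusted p = 7.24e-12). All its bladder arrays lay far above all esophagus arrays. Upk3a, the plaque protein that pairs with Upk1b, stood at 9.76, 9.97 and 9.98 against 5.82, 6.80 and 6.60, 11.3-fold higher (adjusted p = 4.06e-11). Upk1b stood at 11.45, 11.78 and 12.09 in bladder and at 11.41, 11.96 and 12.11 in esophagus. These arrays overlapped fully, and the difference was -0.06 with a 95% interval from -0.69 to 0.58. A further probe set of Upk1b gave 0.04.

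Upk2, the partner of Upk1a, was higher by 2.03 ± 0.63 (adjusted p = 0.02), with esophagus arrays at 7.97, 5.22 and 8.16. Its call was lost without esophagus replicate 2, the lowest of these, where the difference was 1.08 (adjusted p = 0.17), and without bladder replicate 3 (adjusted p = 0.08). It was also lost when only the 6 arrays entered the fit (adjusted p = 0.092) and when they were normalized alone too (adjusted p = 0.10 in limma). With log2(intensity + 1) it was lost as well (adjusted p = 0.16). Upk3b, which mesothelium also makes, rose by 2.11 and Snx31, a sorting nexin of umbrella cells, by 2.75. The urothelial regulators Gata3 and Pparg rose by 2.65 ± 0.28 and 2.68 ± 0.35, with no overlap of arrays. Krt20, the keratin of umbrella cells, did not pass the test in the fit over all 9 groups (1.61, adjusted p = 0.066) and passed when only the 6 arrays entered it (adjusted p = 0.02). Psca, Foxa1, Fgfr3 and Krt7, which are also listed as urothelial, had values from -1.08 to -0.51 and none was called. Fgfr3, a receptor of urothelial growth signals, was called lower when only the 6 arrays entered the fit (-1.03, adjusted p = 0.015).

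Among the keratins of simple epithelia, Krt18 was 4.31-fold higher in bladder, at 11.81, 12.04 and 12.10 against 9.29, 10.27 and 10.07 (adjusted p = 0.0028). Its usual partner Krt8 was not called, at 10.92, 10.95 and 12.04 against 10.21, 11.04 and 11.63. The arrays of Krt8 overlapped and those of Krt18 did not. Krt19 differed by -0.85 and fell short of a 2-fold change. Krt23 differed by -1.88 (adjusted p = 0.031), a call that was lost without any of bladder replicates 1, 2 and 3 or esophagus replicates 2 and 4, where the difference ran from -2.02 to -1.43.

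The keratins of stratified epithelium were lower in bladder or did not pass, and none of 15 rose. The 6 that fell were Krt13, Krt6b, Krt4, Krt6a, Krt80 and Krt17. Krt13 stood at 6.01, 4.62 and 6.29 in bladder and at 11.46, 11.90 and 12.22 in esophagus (-6.22 ± 1.11, adjusted p = 0.000282). Krt4, its partner in the mucosal filament, stood at 8.96, 9.26 and 10.25 against 12.94, 13.78 and 14.27 (-4.17 ± 1.11, adjusted p = 0.00796). Neither gene's arrays overlapped, yet Krt4 was well above the floor of the scale in all bladder arrays. The stress keratins Krt6a and Krt6b differed by -3.60 and -4.24. Krt17 differed by -1.52 on its brightest probe set, while its other probe set gave 0.62. Krt80 lost its call without bladder replicates 1 or 2 or esophagus replicates 2 or 4 (adjusted p from 0.07 to 0.10). It also lost the call with deposited values and with array medians aligned (adjusted p = 0.055 and 0.059 in limma).

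The basal keratins were higher in esophagus on every array without passing the test in the fit over all 9 groups. Krt5 stood at 9.24, 9.80 and 10.39 in bladder and at 10.69, 11.13 and 11.88 in esophagus (adjusted p = 0.44), Krt14 differed by -1.19 (adjusted p = 0.29) and Krt15 by -2.46 (adjusted p = 0.11). The arrays of each of these 3 genes did not overlap, which held for 38.97% of all genes. When only the 6 arrays entered the fit, all 3 were called, with adjusted p of 0.039, 0.032 and 0.00061. The fit over all 9 groups also holds the small intestine arrays, where the SDs of these genes were 4.76, 2.80 and 4.22. In bladder and esophagus the SDs ran from 0.18 to 0.60. Trp63, which encodes p63, the regulator of the basal layer, was lower in bladder, at 9.51, 9.81 and 8.21 against 11.73, 11.86 and 12.00 (-2.68 ± 0.69, adjusted p = 0.0062). The mean of its 4 probe sets gave -1.07 (adjusted p = 0.051), and log2(intensity + 1) an adjusted p of 0.059. Of 14 measured genes of the basal layer and the hemidesmosome, which fixes basal cells to the matrix, 3 fell and 1 rose, and 6 fell with only the 6 arrays in the fit and 5 without the arrays of small intestine and skin. With log2(intensity + 1) 1 fell, and 2 fell without any of bladder replicates 1 and 3 or esophagus replicates 2 and 4. Besides Trp63, the laminin chain Lama3 fell by 1.31 and the hemidesmosomal collagen Col17a1 by 2.09. Col17a1 lost its call without bladder replicates 1 or 3 or esophagus replicates 2 or 4, and with log2(intensity + 1). Ngfr, a neurotrophin receptor, rose by 1.29 and lost its call without esophagus replicate 4 (0.92) and with probe sets averaged (0.74).

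**Figure D2:**
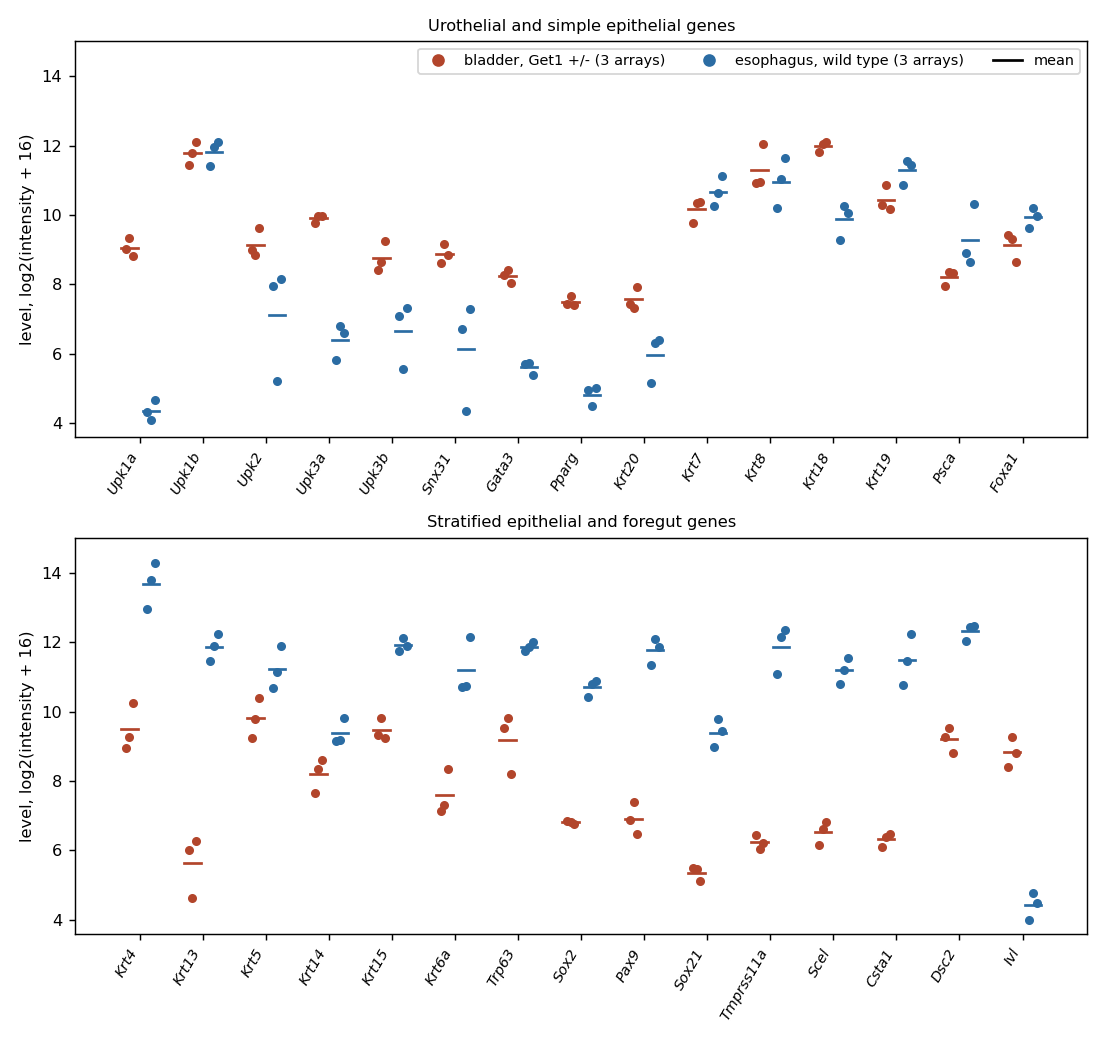
Levels of epithelial genes on each array, as log2(intensity + 16); red points are the 3 bladder arrays, blue points the 3 esophagus arrays and bars their means. Levels are comparable within a gene only. Upk1a, Upk3a, Gata3 and Pparg lie apart with bladder higher, Upk1b overlaps, and Krt13, Pax9, Sox2 and Tmprss11a lie apart with esophagus higher.

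The suprabasal program of the esophagus was lower in bladder as a group. Of 17 measured genes of nonkeratinised stratified epithelium, 11 fell and none rose, with a median of -2.58. Over all genes, 4.85% were called lower and 6.37% higher. Tmprss11a, a membrane serine protease of squamous mucosa, stood at 6.45, 6.03 and 6.21 in bladder and at 11.07, 12.15 and 12.35 in esophagus (49.4-fold lower, adjusted p = 9.09e-07). Scel (sciellin, a precursor of the cornified envelope) and Spink5, a protease inhibitor, differed by -4.64 and -5.10. Another probe set of Scel gave -0.20. Among 21 membrane and desquamation serine proteases and inhibitors, 9 fell and none rose, with Tmprss11g at -4.07 and Tmprss11d at -2.58. Of 11 clade B serpins, 4 fell, led by Serpinb11 at -4.64 and Serpinb3a at -3.62, and 1 rose, Serpinb6b by 1.65. No clade B serpin was called higher without bladder replicate 3 or without esophagus replicate 1.

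Of 24 cornified envelope genes, 5 fell (20.83%) and 1 rose (4.17%), beside 4.85% and 6.37% over all genes. The 5 became 3 without any of bladder replicates 1, 2 and 3 or esophagus replicates 2 and 4. The count was also 3 with deposited values or with array medians aligned, and 8 without the arrays of small intestine and skin. Csta1 (stefin A, a protease inhibitor of the envelope) differed by -5.16 ± 0.94, Sprr3 by -4.33 and the transglutaminase Tgm3 by -3.63. Ivl, which encodes the envelope protein involucrin, went the other way. It stood at 8.40, 9.27 and 8.80 in bladder and at 4.00, 4.78 and 4.49 in esophagus, 21.2-fold higher in bladder (adjusted p = 2.66e-08), and another probe set gave 3.50. Bladder arrays were thus all above esophagus arrays for Ivl, while the reverse held for Csta1, Sprr3 and Tgm3.

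Of 13 desmosome genes, 8 fell and 1 rose, beside 4.85% and 6.37% over all genes. The 8 became 4 without bladder replicate 1 or esophagus replicate 4, and 5 without bladder replicate 2 or with array medians aligned. Dsc2, a desmosomal cadherin, stood at 9.27, 9.54 and 8.81 against 12.02, 12.44 and 12.46 (-3.10 ± 0.25, adjusted p = 1.76e-08). Pkp1, the plakophilin of stratified epithelia, differed by -3.33 (adjusted p = 0.019). It lost its call without bladder replicate 1 or esophagus replicate 4, and with log2(intensity + 1) (adjusted p = 0.088 in limma). Pkp2, the plakophilin of simple epithelia and heart, rose by 2.13 ± 0.39, at 8.25, 8.26 and 9.00 against 5.80, 6.53 and 6.78. Its arrays did not overlap. Most of 21 claudins and other tight junction and adherens genes were not called. Cldn6 and Cldn9 rose by 3.07 and 2.26, with another probe set of Cldn9 at 0.19. These 2 were 9.52% of the list, near the 6.37% called higher over all genes. Another 4 fell (19.05%, beside 4.85% over all genes), among them Cldn10 and Cldn23 at -1.75 and -1.51.

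Most called epithelial transcription factors were lower in bladder: 9 of 28 fell and 3 rose, and 5 fell when probe sets were averaged. Ehf, an epithelial Ets factor, stood at 9.36, 9.28 and 8.71 against 10.54, 11.47 and 11.16 (-1.94 ± 0.34, adjusted p = 0.00027). With probe sets averaged Ehf differed by -0.92, under the 2-fold limit. The grainyhead-like factor Grhl2 differed by -1.58 ± 0.23 (adjusted p = 3.80e-05), and -0.64 with probe sets averaged. Elf5, another Ets factor, differed by -2.17, with its other probe set at 0.64. Grhl3 itself, of which the bladder mice carry an altered allele, stood at 7.43, 7.33 and 7.70 in bladder and at 7.90, 8.52 and 8.47 in esophagus. The groups did not overlap, which held for 38.97% of all genes. The difference of -0.81 did not pass (adjusted p = 0.54, 95% interval -2.65 to 1.03). Grhl3 had an SD of 3.36 over the small intestine arrays, which enter this interval, and of 0.19 in bladder and 0.35 in esophagus. Where its probe set lies relative to the altered part of the gene is not known here, so it checks no label. Grhl1 differed by -0.99 (adjusted p = 0.25) and Klf4, a factor of differentiating epithelia, by -0.22 (adjusted p = 0.78).

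Regulators of body region separated the organs. Of 16 measured foregut patterning factors, 5 fell and none rose. The count of 5 lower was the same under all 17 alternatives, while 1 or 2 members were called higher without bladder replicate 1 or 2, without esophagus replicate 1 or 4 or with array medians aligned. With no fold limit 3 passed as higher, Six4, Eya1 and Gata4, at 0.95, 0.88 and 0.70. Pax9, a paired-box factor of the pharynx and esophagus, stood at 6.89, 7.38 and 6.47 in bladder and at 11.35, 12.08 and 11.85 in esophagus (28.7-fold lower, adjusted p = 6.33e-10). Sox2, which sets esophageal against respiratory fate, stood at 6.86, 6.82 and 6.77 against 10.41, 10.80 and 10.89 (14.8-fold lower, adjusted p = 0.0005). No array of one organ reached the other in either gene. Sox21, Pax1 and Tbx1 differed by -4.04, -2.51 and -1.73. The airway and thyroid factor Nkx2-1 stood between 4.76 and 5.57 on all 6 arrays.

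Of 18 urogenital factors and hormone receptors, 11 rose and none fell, with a median of 1.49. Esr1, the estrogen receptor alpha, stood at 9.77, 10.06 and 10.58 in bladder and at 5.93, 5.62 and 5.59 in esophagus (21.4-fold higher, adjusted p = 1.39e-09). Emx2, a homeobox factor of the urogenital tract, stood at 9.02, 9.12 and 9.26 against 4.78, 5.03 and 4.45 (20.9-fold higher). In both genes every bladder array was above 9 and every esophagus array below 6. Sall1, a zinc finger factor of kidney and limb development, rose by 3.57 ± 0.69 and Wt1, a factor of kidney, gonad and mesothelium, by 3.27 ± 0.45. Another probe set of Sall1 gave 0.10. The T-box genes Tbx3, Tbx4, Tbx2 and Tbx18 rose by 1.58 to 2.30, and Tbx20, a T-box gene outside the list, by 4.49.

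The Hox genes divided by position along their clusters. Of 14 genes of paralogue groups 9 to 13, 11 rose and 1 fell, and of 19 genes of groups 1 to 8, 7 fell and 1 rose. Hoxa9 stood at 9.47, 9.54 and 9.99 in bladder and at 4.72, 4.00 and 4.06 in esophagus, 42.4-fold higher (adjusted p = 2.70e-11). Hoxa10 was 34.6-fold and Hoxd10 26.8-fold higher, and Hoxa11 rose by 3.78. Hoxd9 and Hoxd11 rose by 2.73 and 2.63, and Hoxb9, Hoxc9 and Hoxc10 by 1.96 to 2.31. The gene of groups 9 to 13 that fell was Hoxc13, a dim gene at 4.13, 4.83 and 4.78 against 5.70, 5.91 and 5.90. Hoxa13, needed for the cloaca and its derivatives, differed by 0.42 (adjusted p = 0.10) at levels of 4.01 to 5.01, and Hoxd12 by 0.23. For Hoxd13, Hoxa9 and Hoxa10, other probe sets gave 0.43, 1.01 and 0.67, in the same direction but much smaller. Among the anterior genes, Hoxa3 stood at 7.73, 7.38 and 7.02 against 9.89, 10.04 and 9.55 (-2.45 ± 0.17, adjusted p = 1.77e-09), and Hoxc5 and Hoxc4 differed by -2.35 and -2.16. Hoxd8 was the anterior list's only call in the other direction, at 1.49.

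**Figure D3:**
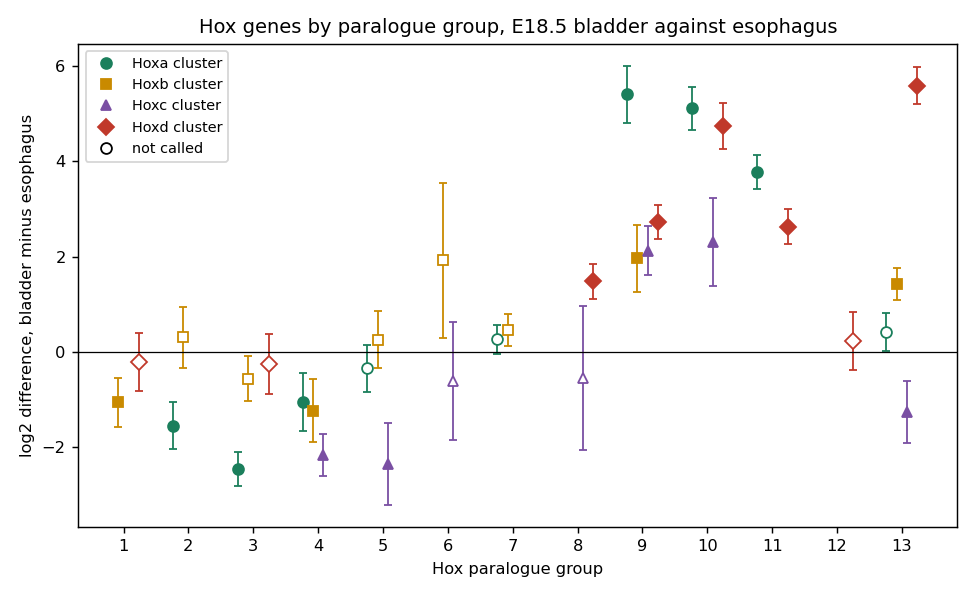
Log2 difference, bladder minus esophagus, of each measured Hox gene against its paralogue group, with 95% intervals; marker and colour give the cluster, and open markers are genes that were not called. Filled points of groups 1 to 5 lie below 0, and those of groups 8 to 13 above it except Hoxc13 at -1.26.

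Among signalling genes, calls were most frequent in the BMP and TGF-beta list. Of 25 BMP and TGF-beta pathway genes, 10 rose and 2 fell, with a median of 0.60. The ligand Bmp5 rose by 2.39 ± 0.28 and Gdf10 by 2.32 ± 0.50, the ligand genes Bmp4, Tgfb2 and Tgfb3 by 1.18 to 1.31, the pseudoreceptor Bambi by 2.06, and the target genes Id1, Id3 and Id4 by 1.05 to 1.53. The antagonist Grem1 fell by 1.60, and the receptor gene Bmpr1b was also called lower. Of 38 Wnt pathway genes, 4 rose and 2 fell, beside shares of 6.37% and 4.85% over all genes, and 8 rose with array medians aligned or with log2(intensity + 1). The ligand Wnt2 stood at 7.60, 7.41 and 7.79 against 4.73, 4.76 and 4.83 (2.83 ± 0.22, adjusted p = 9.76e-09), and the antagonist Dkk2 rose by 1.98. The ligand Wnt10a fell by 1.90, a call that was lost with log2(intensity + 1) (adjusted p = 0.19 in limma). None of 21 FGF genes rose and 4 fell (2 with probe sets averaged), led by the carrier protein Fgfbp1 at -3.13 ± 0.51. In the hedgehog list 1 of 11 rose, the effector Gli2 by 1.26.

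Retinoid genes split evenly, with 4 of 21 higher and 4 lower. The retinoic acid binding protein Crabp1 stood at 9.03, 9.02 and 9.22 in bladder and at 5.26, 5.17 and 5.10 in esophagus (3.91 ± 0.27, adjusted p = 1.28e-09). Rarres2, which encodes chemerin, rose by 2.90, Crabp2 by 1.83 and the retinol carrier receptor Stra6 by 1.08. The retinol binding protein Rbp2 differed by -3.31, the retinoic acid degrading enzyme Cyp26a1 by -2.02, and the dehydrogenases Aldh1a1 and Adh7 by -1.53 and -1.36. Binding proteins thus stood on both sides, and the called enzymes on the esophagus side.

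Smooth muscle genes were higher in bladder throughout. Of 24 measured genes, 14 rose and none fell, all 24 differences were above 0, and the median was 1.46. Csrp1, a LIM protein of smooth muscle, stood at 10.38, 10.24 and 10.80 against 8.27, 7.80 and 7.88 (2.49 ± 0.23, adjusted p = 1.12e-07). Cnn1 (calponin) stood at 11.99, 11.96 and 11.97 against 10.07, 9.59 and 9.80, a rise of 2.15. Its call was lost with log2(intensity + 1) (adjusted p = 0.11 in limma). The contractile genes Actg2 and Myh11 rose by 1.53 and 1.40, with bladder above esophagus on every array. Acta2, the most general smooth muscle actin, differed by 0.62, under the 2-fold limit, at 13.10 to 13.16 in bladder and 12.43 to 12.66 in esophagus, while another of its probe sets gave 2.37. Synpo2 rose by 2.25. It differed by 0.60 when the arrays of small intestine and skin were left out, where the brightest probe set was chosen anew. Another of its probe sets gave 0.65 with all arrays kept, so the lower value may reflect a change of probe set.

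Skeletal muscle genes went both ways. Of 33 measured, 7 rose and 8 fell in bladder; the 8 became 4 without bladder replicate 1 or with log2(intensity + 1) and 5 without esophagus replicate 1 or 4 or when only the 6 arrays were normalized, and the 7 became 4 without the arrays of small intestine and skin. Acta1, the skeletal alpha-actin, stood at 11.46, 11.48 and 11.41 in bladder and at 8.19, 7.72 and 8.58 in esophagus (9.74-fold higher, adjusted p = 7.53e-07). Tnnt3, the fast troponin T, rose by 1.55, Actc1 by 1.35 and the fast myosin Myh2 by 1.76. The myogenic factors went the other way: Myf5 stood at 6.05, 5.79 and 6.09 against 7.96, 7.21 and 7.31 (-1.52 ± 0.26, adjusted p = 0.00019), and Myf6 and Myog differed by -1.56 and -1.36. The satellite cell factor Pax7 and the giant sarcomere proteins Ttn and Neb also fell, by 1.15, 1.34 and 1.22. Bladder arrays were thus above esophagus arrays for Acta1 and Tnnt3 and below them for Myf5, Myf6 and Myog. Ckm, the muscle creatine kinase, rose by 2.21 on its brightest probe set, while its other probe set gave -0.64.

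Neuronal genes were higher in bladder, with 12 of 19 called higher and none lower and a median of 1.27. Nefm, a neurofilament chain, stood at 8.98, 8.86 and 9.28 in bladder and at 6.09, 5.84 and 4.32 in esophagus (12.3-fold higher, adjusted p = 2.27e-07). Nefl and Prph, further neuronal filament genes, rose by 3.17 and 3.10, and Npy, a peptide of sympathetic neurons, by 2.66 ± 0.28. Esophagus replicate 4 was the lowest of its group for these 4 genes and replicate 1 the highest, and 8 of the 19 were called without replicate 4. Another probe set of Prph gave 0.62. Th, the rate-limiting enzyme of catecholamine synthesis, rose by 1.70, and Chat, the enzyme of acetylcholine synthesis, was not called. Of 8 Schwann cell and glial genes, 1 fell, the neuregulin receptor Erbb3 by 1.42 (another probe set gave 0.16), and none rose.

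**Figure D4:**
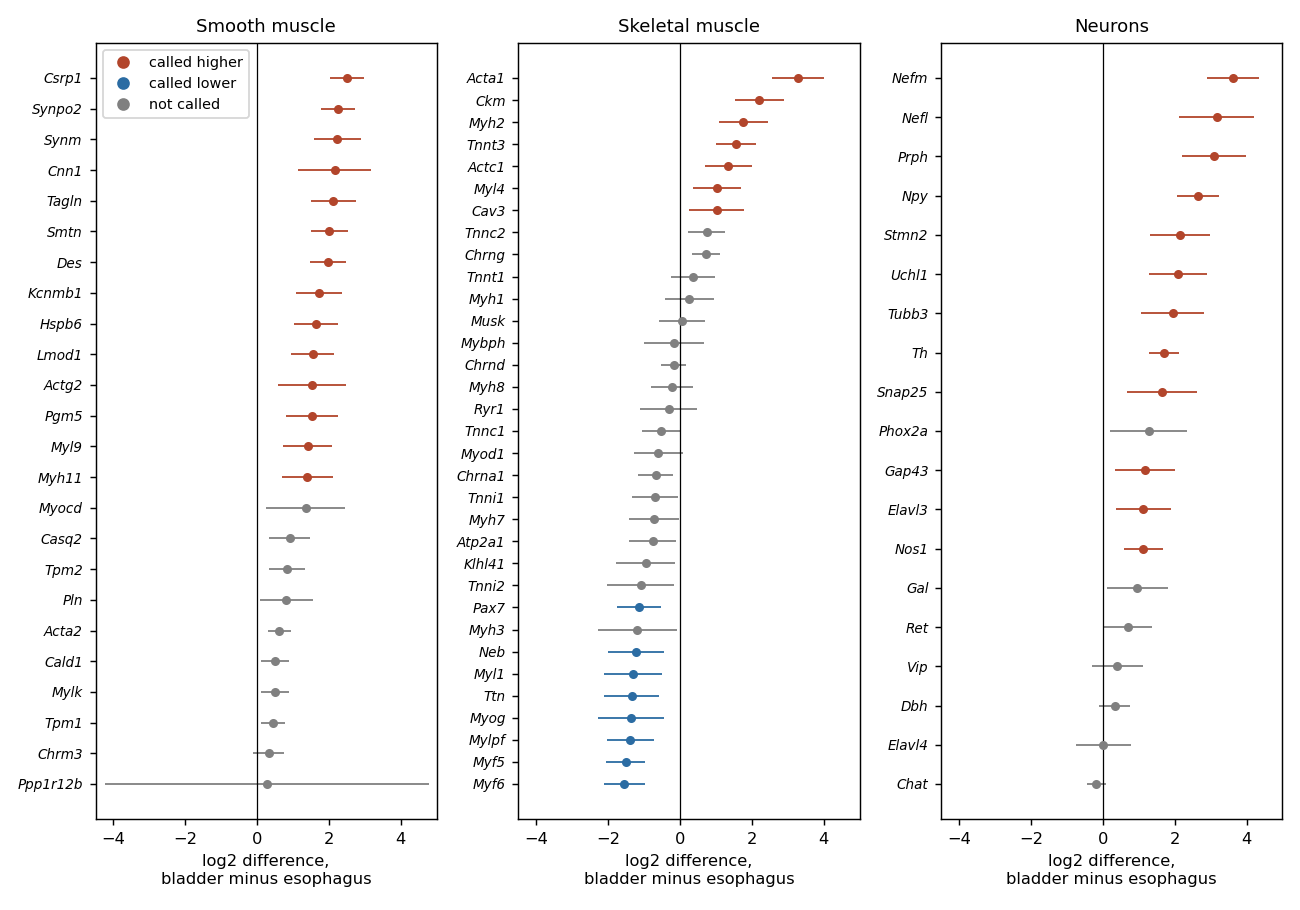
Log2 differences, bladder minus esophagus, with 95% intervals for the measured genes of smooth muscle (24), skeletal muscle (33) and neurons (19); red points were called higher in bladder, blue points lower and grey points not called. Smooth muscle points all lie above 0, and skeletal muscle points run from 3.28 for Acta1 to -1.56 for Myf6.

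Of 19 measured genes of motile cilia, 7 fell in bladder and 1 rose, with a median of -0.65, and the most changed were near the floor of the scale in bladder. Dynlrb2 stood at 4.59, 4.04 and 4.81 in bladder and at 9.31, 8.65 and 10.53 in esophagus (-5.01 ± 0.30, adjusted p = 2.55e-10). Tmem212, a membrane protein gene of ciliated cells, and Rsph4a, a radial spoke protein, differed by -3.75 and -3.03, and Cfap126 by -2.63. Efcab10, Ccdc153, Ak7 and Sec14l3, which are not in the list, differed by -6.45, -5.99, -4.91 and -4.53. Efcab10 stood at 4.63, 4.18 and 4.48 in bladder and at 10.88, 9.78 and 11.97 in esophagus. In all of these, esophagus replicate 4 was the highest array and replicate 2 the lowest. Foxj1, the master regulator of motile cilia, ran against the group: it stood at 4.10, 7.22 and 6.86 in bladder and at 4.04, 4.00 and 4.05 in esophagus (2.03 ± 0.45, adjusted p = 0.0021). All bladder arrays lay above the esophagus arrays, replicate 1 by the least. No motile cilia gene was called higher when only the 6 arrays entered the fit, and 2 were without esophagus replicate 4. Foxj1 has 1 probe set here, so no other probe set checks its direction. In E18.5 skin Foxj1 averaged 7.68, while Dynlrb2, Tmem212 and Rsph4a averaged 4.88, 4.53 and 4.52. Foxj1 averaged 4 in E18.5 stomach and in E16.5 bladder. Its probe set thus did not follow these cilia genes in skin either, and whether it reads Foxj1 reliably was not tested.

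Cyp2f2 stood at 5.05, 5.36 and 5.94 in bladder and at 11.53, 12.14 and 12.69 in esophagus (-6.67 ± 0.85, adjusted p = 7.29e-06). Scgb3a2, an airway secretoglobin, stood at 4.03, 4.00 and 4.00 against 6.95, 7.06 and 8.08. These were the 2 of 14 airway and lung genes that were called, both lower in bladder. The list's median level was 5.16 in bladder and 4.96 in esophagus. In E18.5 stomach and skin, Cyp2f2 averaged 9.19 and 7.32, and Scgb3a2 5.03 and 6.80. The skin arrays spread widely for Scgb3a2 (SD 1.6) and for the lung gene Sftpc, which averaged 10.3 there (SD 5.4). The defining lung genes Sftpc and Scgb1a1 stood at 4.70 to 5.01 and 4.00 to 4.43 on the esophagus arrays. The cartilage genes Col2a1 and Acan were lower in esophagus, at 4.14 to 4.97 and 5.11 to 5.52. The part of RNA from neighbouring organs in the differences of cilia and airway genes was not tested.

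Among markers of other cell types, those of vessels, cartilage and mast cells included called genes, and those of stomach and liver did not. Over all genes, 6.37% were called higher and 4.85% lower. The thymus list (5.88% higher) and the intestinal list (6.67% lower) were near these shares. None of 14 gastric genes was called by limma (1 was higher at an unadjusted p under 0.05), and of 15 intestinal genes only Fabp1 fell, by 2.60. None of 9 liver genes was called by limma, and none had an unadjusted p under 0.05, but all 9 differences were below 0, with a median of -0.98. Without the arrays of small intestine and skin, 2 were called lower, among them Fga, a fibrinogen chain, at -1.95 (adjusted p = 0.043), and 1 was called lower with log2(intensity + 1) or when only the 6 arrays were normalized and fitted. The albumin gene Alb stood at 8.57, 6.73 and 5.65 in bladder and at 9.10, 8.85 and 8.47 in esophagus. Of 17 thymus and T cell genes, 1 rose, and of 9 mesothelial genes 2 rose, Upk3b and Wt1, and none fell. Without esophagus replicate 1, 3 mesothelial genes were called higher and 3 lower, and without bladder replicate 2, 1 was called lower. Of 16 cartilage genes 4 rose, led by Acan at 1.65, and 2 were called without bladder replicate 2, without esophagus replicate 4 or with deposited values. Of 15 endothelial genes 6 rose, led by Sox17 at 1.89 ± 0.22, and 3 with the deposited values. Of 18 macrophage and leukocyte genes, 4 rose and 1 fell. The mast cell proteases Cpa3, Cma1 and Mcpt4 rose by 1.84, 1.80 and 1.29 and the macrophage marker Cd68 by 1.00, while Kit, the receptor of mast cells and of pacemaker cells of the gut, differed by -1.15 (adjusted p = 0.0054), with another probe set at 0.42. H2-Ab1, a chain of MHC class II, fell by 2.25, at 7.21, 6.77 and 7.24 against 8.69, 9.48 and 9.79.

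Channels and secreted products included some of the widest gaps. P2rx1, the ATP-gated channel of bladder smooth muscle, stood at 8.38, 8.17 and 8.09 in bladder and at 4.25, 4.29 and 4.43 in esophagus (14.8-fold higher, adjusted p = 8.50e-10). The urea transporter Slc14a1 rose by 3.23 and the water channel Aqp1 by 1.81, while Aqp4 differed by -2.52, with another probe set at 0.24. Ltf (lactoferrin) stood at 4.03, 4.00 and 4.00 against 8.14, 11.85 and 10.26, and the membrane mucin Muc4 differed by -3.54. Clca1, a secreted regulator of chloride channels, rose by 3.79, and its other probe set gave 0.19. Gsdmc2, a gasdermin, was 31.9-fold higher in bladder.

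Dividing-cell genes showed no called difference. None of 38 cell cycle genes was called by limma in either direction; with no fold limit 3 passed as higher, and at an unadjusted p under 0.05 there were 7 higher and 1 lower. The median difference was 0.07. None of 15 imprinted genes was called by limma, 2 passed with no fold limit, and 3 were higher at an unadjusted p under 0.05. Of 29 collagen and matrix genes 5 rose, led by Fmod and Bgn at 1.67 and 1.59, and 8 with array medians aligned.

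Levels in the other groups of the same array type are set beside these differences. The 3′ probe set of Gapdh exceeded its 5′ probe set by 0.15, 0.07 and -0.02 on the E18.5 skin arrays. This gap was 0.10, -0.04 and 0.31 in small intestine and 1.47, 1.60 and 2.97 in stomach. Skin and small intestine thus had narrower gaps than bladder, esophagus and stomach, and the part of this in their levels was not tested. Krt13, Krt4 and Sox2 were also high in E18.5 stomach, at 11.26, 12.96 and 10.20 on average, while Pax9 was at 7.82 there, and Dynlrb2, Tmem212 and Rsph4a were at 4.64, 4.05 and 4.72. Part of the mouse stomach, the forestomach, is squamous. Upk1b averaged 8.71 in stomach and 4.80 in skin, below both bladder and esophagus. Ivl averaged 10.71 in skin, and Gsdmc2 averaged 9.60 in stomach. The small intestine arrays differed widely among themselves (SD 4.11 for Krt13, against 0.89 in bladder and 0.38 in esophagus). Their spread enters the SEs and p-values of the fit over all 9 groups, and their levels are not described further.

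In wild-type bladder at E16.5, the nearest in age to the Get1 +/- bladders, Hoxd13 and Hoxa10 stood near their E18.5 levels. Hoxd13 averaged 10.52 ± 0.07 (SD, n = 3) there and 10.11 ± 0.22 at E18.5, and Hoxa10 10.64 and 10.82. The urogenital factors Emx2 and Sall1 were lower at E16.5, by 2.18 and 2.06 (adjusted p = 0.0036 and 0.047 in limma). Wt1 did not pass between these ages (0.91, adjusted p = 0.19). Some urothelial genes, Esr1 and Ivl were lower at E16.5: Upk1a averaged 7.34 ± 0.14, Upk3a 7.80 ± 0.16, Esr1 7.27 ± 0.93 and Ivl 6.25 ± 0.21. Their E18.5 minus E16.5 differences were 1.72, 2.10, 2.87 and 2.58, with adjusted p of 3.51e-05, 5.75e-07, 3.02e-06 and 7.23e-05 in limma. Upk2, Upk1b and Gata3 did not pass between these ages (1.20, 0.88 and 0.56, with adjusted p of 0.218, 0.0567 and 0.185). Tnnt3 rose by 3.33 and Npy by 3.57 over the same interval (adjusted p = 1.17e-07 each). Age and genotype cannot be told apart in these values, and the comparison shares the E18.5 bladder arrays with the one above.

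**Figure D5:**
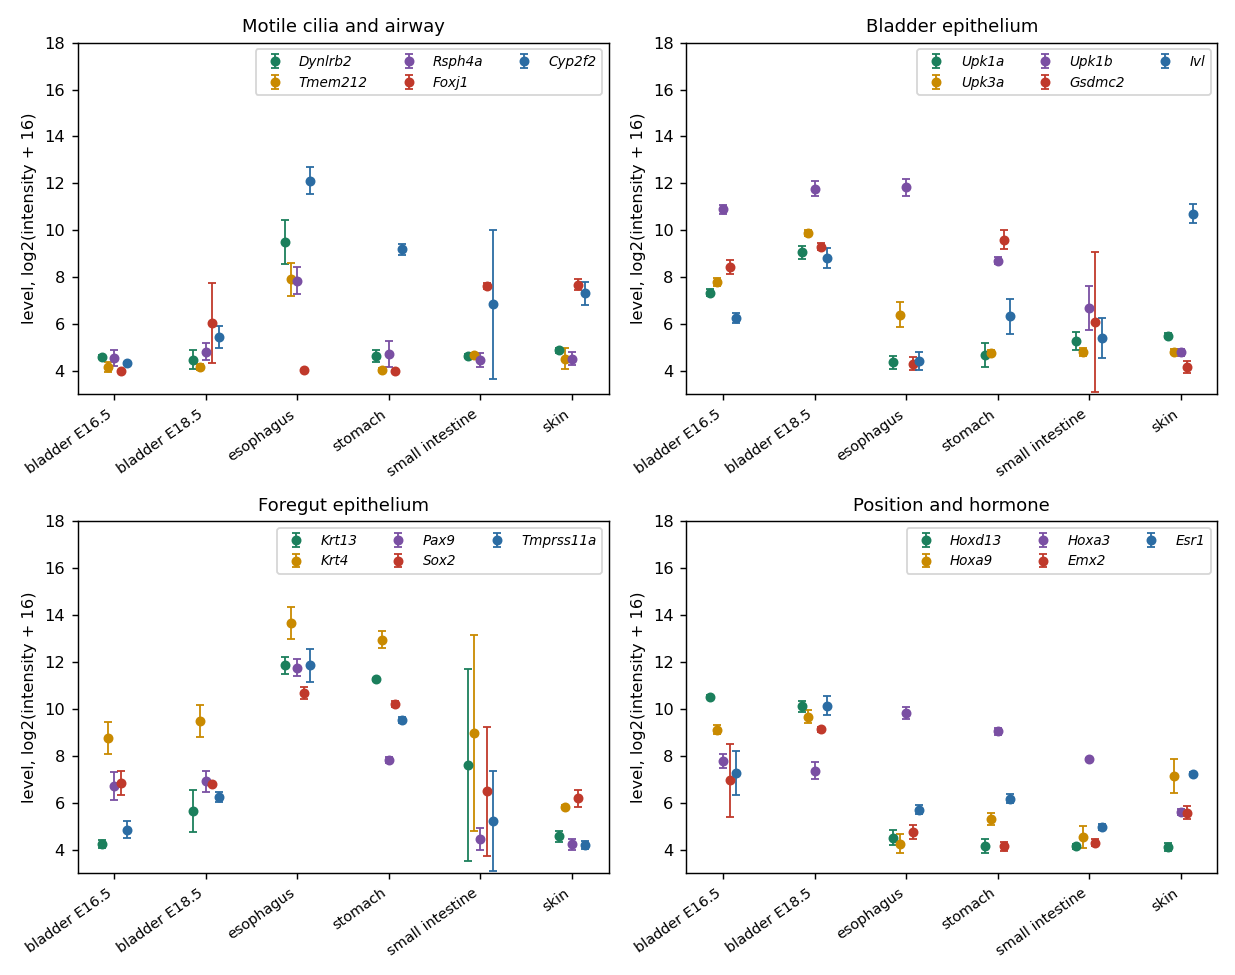
Mean level, log2(intensity + 16), with SD over arrays, of 20 genes in E16.5 wild-type bladder, E18.5 Get1 +/- bladder and 4 other E18.5 organs; colours mark the genes named in each panel. Dynlrb2, Tmem212 and Rsph4a are high in esophagus only among these 6 groups, Upk1b is high in bladder and esophagus, and Hoxd13 stands near 10 in both bladder groups and near 4 elsewhere.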

How the data were processed

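RNA of whole organs was measured on 3′ expression arrays, 3 of bladder and 3 of esophagus at E18.5. The authors deposited linear intensity values, 1 for each probe set. The submitters' processing notes name PLIER 2.0 and Affymetrix Expression Console 1.1.1, and steps between arrays are not given in the sources used here. From the 45101 probe sets, 64 control probe sets were left out, log2(intensity + 16) was taken and quantile-normalized over the 26 arrays, and the brightest probe set of each named gene was kept. GEO's platform annotation, with symbols updated through RefSeq, gave 1 gene for 34945 probe sets, several for 932 and none for 9160. limma 3.58.1 (R 4.3.3) fitted the 9 groups together, with Benjamini-Hochberg adjustment over all genes, 2-sided. Calls required a 2-fold change or more together with an adjusted p below 0.05. The code was also checked on simulated data built from the means and SDs of these arrays.

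The members and the 48 gene lists were chosen with earlier results of these data known. Named genes are the 15 largest changes in each direction among called genes whose arrays do not overlap (at most 2 of a family of near-identical members), up to 4 called members of each list or its largest change where none was called, all members of 6 lists, and Grhl1, Grhl2, Grhl3, Ehf, Klf4 and Trp63. Other genes named were chosen after their values were seen, and so were the motifs. Alternatives changed the normalization, pseudocount, filter, probe set rule, variance model, arrays and fold limit.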

Additional observations from a re-analysis of the deposited data

How the results depend on the processing

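Under 17 alternatives, the counts of genes called higher (1159) and lower (883) stayed within 1.5 times, except that log2(intensity + 1) gave 1768 higher and that 3263 were higher and 1889 lower with no fold limit. Leaving out 1 array at a time gave 1038 to 1307 higher and 819 to 943 lower. Of the 149 named genes that were called, 31 lost the call or reversed under at least 1 alternative. Ckm reversed to -0.62 without the arrays of small intestine and skin, an alternative added after the data were seen. In that alternative the brightest probe set was chosen anew over the remaining arrays. The probe set of Ckm not used in the main fit gave -0.64 between the same bladder and esophagus arrays. The reversal therefore cannot be told apart from a change of probe set. Without bladder replicate 3, whose Gapdh probe sets differed most, 923 of the 1159 and 745 of the 883 genes were called again. The median of all genes was 0.03 with deposited values, 0.26 with array medians aligned and 0.17 with log2(intensity + 1). No paired analysis was possible because the titles of bladder and esophagus arrays share no replicate number that marks a pair. The limits are the 3 arrays per organ, the tie of organ to genotype and study, and, for dim genes, values near the floor of the scale.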

Other observations

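Some bladder genes outside the lists were among the largest increases. Mmp10, a matrix metalloproteinase, stood at 6.98, 8.45 and 8.41 in bladder and at 4.22, 4.66 and 4.13 in esophagus, and averaged 4.80 in wild-type bladder at E16.5. Itln1, an intelectin lectin, stood at 7.65, 7.94 and 7.86 against 4.91, 4.57 and 4.07, and averaged 4.61 at E16.5. Both were thus low in the younger bladder and in the esophagus. Rbfox3, a splicing factor of neurons, rose by 4.15, Popdc2, a membrane protein of heart and muscle, by 3.92, and Cdh16, a cadherin of kidney epithelium, by 3.51. Another probe set of Rbfox3 gave 0.87.

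On the esophagus side, Arg1 (arginase) stood at 6.17, 6.29 and 6.36 in bladder and at 9.57, 10.45 and 11.22 in esophagus, and the lipoxygenase gene Alox15 at 4.70, 4.19 and 5.80 against 8.97, 9.21 and 9.96. Upk3bl, a relative of the uroplakin-type gene Upk3b, stood at 7.09, 7.45 and 6.89 in bladder and at 10.24, 11.26 and 11.09 in esophagus, opposite to Upk3b, which was 2.11 higher in bladder. Slc5a4a and 1110017D15Rik spread widely within esophagus, at 11.08, 9.10 and 4.66 and at 9.46, 4.63 and 11.17. For 3 called genes all arrays of an organ were listed at 0: 2310005A03Rik and Vmn1r13 in bladder and 4930434J06Rik in esophagus.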
